A study of Mus musculus with 24 samples.

Results

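Mitosis is carried out by proteins whose genes are transcribed mainly in the G2 phase and in mitosis itself, and 35 such genes are described here. They were listed by name and were found in the table of counts by matching its Ensembl identifiers to mouse symbols. All 35 were present, each under 1 identifier, among 55359 genes, of which 52083 (94.1%) had a symbol. By role they comprised 4 genes for Cdk1 and its cyclins, 5 for mitotic kinases and 3 for the anaphase-promoting complex and ubiquitin. A further 3 were for the chromosomal passenger complex, 7 for the centromere and kinetochore and 5 for spindle motors and microtubule-binding proteins. The last were 5 for the central spindle and cytokinesis and 3 for chromosome structure and proliferation markers.

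The study asked how ethanol acts on cultured mouse oligodendrocytes, the cells that make myelin in the brain. Cells were taken from the cortex of C57BL6/J pups aged 5 to 7 days, sorted with magnetic beads for the surface antigen O4, which immature oligodendrocytes carry, and differentiated for 3 days, chiefly with the thyroid hormone T3. In experiment 1, 6 wells then received 30 mM ethanol for 3 days and 6 wells received none. In experiment 2, 6 wells received 10 mM ethanol for 3 days and 6 wells received none. All 4 groups shared strain, age, sorting and differentiation, and the labels give no sex and no genetic change. Each experiment is also given as 1 batch, and untreated plates stood in an incubator of their own. Ethanol and incubator, and dose and experiment, therefore cannot be told apart. The labels call the 6 wells of a group biological replicates without naming separate litters or isolations, so the p-values measure the spread between wells.

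Cdk1 bound to cyclin A or cyclin B drives a cell into mitosis, the kinetochores and the chromosomal passenger complex attach the chromosomes to the spindle and check the attachment, and the anaphase-promoting complex ends mitosis by marking cyclin B for destruction. Many of these genes are held down in resting cells by the DREAM complex and switched on in G2 by B-Myb and FoxM1, acting through a promoter element called the cell cycle genes homology region (CHR), often next to CCAAT boxes bound by the factor NF-Y. In the oligodendrocyte lineage the precursors divide, and division ends as the cells differentiate into myelin-forming cells.

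Promoters of 5 central members are printed because those letters are shared by genes of different roles: Cdk1, the cyclins Ccnb1 and Ccnb2, the anaphase-promoting complex activator Cdc20 and the kinase Plk1. Each is the run of 250 bases before the transcription start, 5′ to 3′ on the gene's strand, from RefSeq on the mouse build GRCm38.p6, which is not the build behind the counts. Capitals mark TTTGAA, the common form of the CHR, and CCAAT or its reverse complement ATTGG. The runs are chr10:69352913-69353162 on the minus strand for Cdk1, chr13:100786487-100786736 on the minus strand for Ccnb1, chr9:70421555-70421804 on the minus strand for Ccnb2, chr4:118437344-118437593 on the minus strand for Cdc20 and chr7:122159185-122159434 on the plus strand for Plk1.
Cdk1: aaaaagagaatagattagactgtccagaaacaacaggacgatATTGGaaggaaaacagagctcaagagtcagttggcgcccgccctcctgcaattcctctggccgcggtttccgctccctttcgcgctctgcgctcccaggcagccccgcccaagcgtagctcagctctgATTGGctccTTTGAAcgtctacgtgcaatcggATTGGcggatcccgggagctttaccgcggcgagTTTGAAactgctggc
Ccnb1: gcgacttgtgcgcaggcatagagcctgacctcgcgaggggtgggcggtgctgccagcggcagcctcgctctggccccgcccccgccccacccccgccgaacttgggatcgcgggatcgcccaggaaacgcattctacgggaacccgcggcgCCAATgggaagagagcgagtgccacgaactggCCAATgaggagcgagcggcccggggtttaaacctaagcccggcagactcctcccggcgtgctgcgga
Ccnb2: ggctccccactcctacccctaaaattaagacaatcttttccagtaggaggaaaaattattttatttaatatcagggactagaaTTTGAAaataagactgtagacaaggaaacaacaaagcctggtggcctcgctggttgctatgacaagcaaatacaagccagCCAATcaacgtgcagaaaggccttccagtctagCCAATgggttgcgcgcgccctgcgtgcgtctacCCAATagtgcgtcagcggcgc
Cdc20: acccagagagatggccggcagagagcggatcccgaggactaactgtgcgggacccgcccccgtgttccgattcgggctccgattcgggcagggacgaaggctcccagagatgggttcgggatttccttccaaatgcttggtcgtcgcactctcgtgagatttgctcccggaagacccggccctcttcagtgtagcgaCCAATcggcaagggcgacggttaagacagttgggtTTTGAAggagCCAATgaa
Plk1: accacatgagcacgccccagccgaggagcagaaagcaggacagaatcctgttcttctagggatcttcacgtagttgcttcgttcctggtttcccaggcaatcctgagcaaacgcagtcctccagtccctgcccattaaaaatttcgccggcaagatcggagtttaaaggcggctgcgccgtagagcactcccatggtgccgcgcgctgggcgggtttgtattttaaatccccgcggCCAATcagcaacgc

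In the Cdk1 run, TTTGAA began 71 and 15 bases before the start, with CCAAT on the opposite strand at 208, 80 and 48 bases before it. Cdc20 had TTTGAA 18 bases before the start, between CCAAT boxes at 53 and 8 bases. Ccnb2 had 3 CCAAT boxes, at 87, 54 and 21 bases before the start, and TTTGAA at 167 bases before and 5 bases after it. Plk1 had a CCAAT box 14 bases before the start and TTTGAA 31 bases after it. Ccnb1 had CCAAT boxes at 99 and 67 bases before the start. Neither TTTGAA nor TTCGAA, the other CHR form searched, lay in its window of 250 bases before to 50 after the start. Variants of the CHR beyond these forms were not searched, so their absence does not show that a promoter lacks the element.

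The RefSeq table held 31 promoters for 29 of the 35 members. Ect2 and Prc1 had a pair each, and the windows of a pair overlapped for most of their length. Either CHR form, searched on both strands, lay in 25 of the 31 windows of 300 bases (80.6%, exact 95% binomial interval 62.5 to 92.5%), against 13.8% of 12491 promoters of genes tested at 30 mM and 19.2% of all 32851 promoters. CCAAT lay in 25 of 31 (80.6%), against 37.7% and 37.4%. Both kinds of letters lay in 23 of 31 (74.2%), against 5.64% and 7.52%. Of 34 matches to a CHR form and 61 to CCAAT in the member promoters, 1 pair shared letters. Sites in the overlapping windows of Ect2 and Prc1 enter these counts more than once, and the binomial interval takes all windows as independent. By gene, a CHR form lay in 23 of 29 members, CCAAT in 23 of 29 and both in 21 of 29. The 6 members with neither of the CHR forms searched in the window were Birc5, Ccnb1, Cenpe, Knstrn, Nuf2 and Nusap1. The 6 not in the table were Aurkb, Ccna2, Kif20a, Pbk, Pimreg and Tpx2. A match of letters is a description and shows no binding. The windows were the same in all wells, so these shares say nothing of ethanol by themselves.

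**Figure D1:**
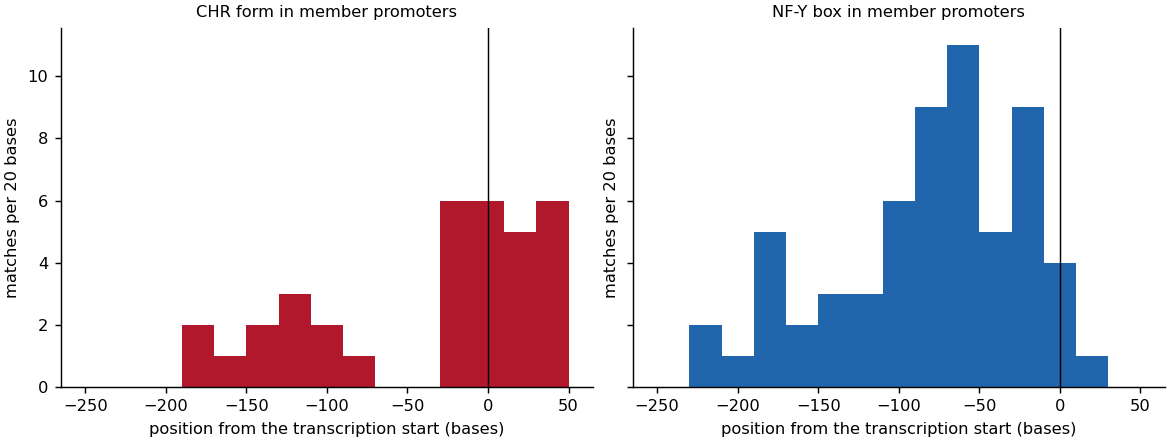
Number of matches per 20 bases to a CHR form (TTTGAA or TTCGAA, left) and to the CCAAT box (right) in the 31 member promoters, by position from the transcription start in bases, both strands together. Matches to the CHR forms gather from about 30 bases before to 50 bases after the start, and those to CCAAT lie mostly before it. Sites in the overlapping windows of Ect2 and Prc1 are counted in each window.

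Wells held between 1184609 and 1817028 counts, so that 3 counts, taken as the floor of detection, corresponded to levels of 1.65 to 2.53 CPM. CPM is the count scaled by the well's total count to a common size, and 3′ tag counts do not scale with transcript length. Of the 35 members, 34 passed the filter on low counts in each comparison. Kif20a, a motor of the central spindle, did not, with 0 to 3.32 CPM in single wells and group means of 2.02 and 1.23 CPM in the controls of experiments 1 and 2, 1.36 CPM at 30 mM and 0.943 CPM at 10 mM. A change in Kif20a was not detectable at this depth. In these bulk samples, fewer dividing cells and less of these RNAs in each dividing cell cannot be told apart.

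Added up, the 35 genes took 2551 to 2786 CPM in the untreated wells of experiment 1 (mean 2650 ± 107, SD, n = 6) and 1700 to 2095 CPM at 30 mM (1877 ± 126, n = 6). They took 2252 to 2492 CPM in the untreated wells of experiment 2 (2390 ± 107, n = 6) and 2270 to 2616 CPM at 10 mM (2408 ± 151, n = 6). Every well at 30 mM lay below every untreated well of either experiment, whereas the wells at 10 mM overlapped their controls. The sum fell by 29.2% at 30 mM, a log2 difference of -0.50, and differed by 0.753% (log2 0.01) at 10 mM. The untreated wells of experiment 1 lay 10.9% (log2 0.15) above those of experiment 2 and did not overlap them. These sums carry no test, because the list was drawn up with earlier results known.

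**Figure D2:**
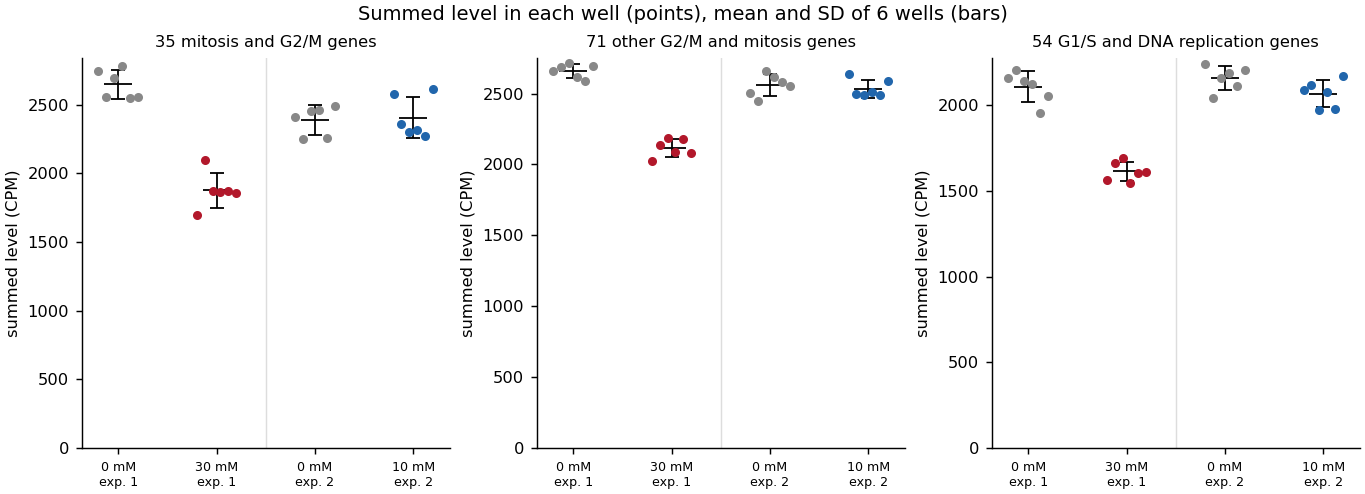
Summed level (CPM, y axis from 0) of the 35 mitosis and G2/M genes, of 71 other genes of G2/M and mitosis, and of 54 genes of G1/S and DNA replication in each well (points) of the 4 groups, with mean and SD of 6 wells (bars). In all 3 panels the wells at 30 mM lie below the untreated wells of both experiments, and those at 10 mM overlap their controls.

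At 30 mM, 27 of the 34 members tested were lower than in the controls of experiment 1 and 0 were higher, by edgeR's quasi-likelihood test at a Benjamini-Hochberg adjusted p under 0.05 over all genes. Over all 13235 genes tested, 9.67% were called, 6.65% lower and 3.02% higher. The log2 fold change was below 0 for all 34 members, against 46% of all genes, with a median of -0.50 and a range of -0.87 to -0.08, against a median of 0.02 over all genes. For 16 members the 6 ethanol wells all lay below the 6 control wells and for 0 members above them, against 3.77% and 1.21% of all genes. Of the called members 10 were at least 1.5-fold lower, and the like share over all genes was not computed. With upper-quartile scaling, all genes split into 697 lower and 551 higher in place of 880 and 400, while 26 members were still called lower and 0 higher.

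Other transcripts moved at 30 mM too, and their part in the fall of the members was not tested. Among fibroblast and mural cell markers, 8 of 11 tested were lower, and the summed level of all 12 went from 1131 to 1462 CPM in the control wells to 474 to 604 CPM, with Acta2 at 360 ± 39.1 and 120 ± 38.2 CPM and Tagln at 58.4 ± 7.96 and 18.4 ± 4.84 CPM (mean ± SD, n = 6). Of the mature oligodendrocyte markers 7 of 10 tested were higher, and their sum was 7526 to 8711 CPM in controls and 9031 to 15748 CPM with ethanol, the highest being replicate 1, which also had the lowest sum of the members. Without that well the members' sum still differed by -0.47 (log2). Mbp, which encodes myelin basic protein, was at 2492 ± 109 CPM in controls and 3385 ± 785 CPM with ethanol (SD, n = 6). Of the astrocyte markers 5 of 9 were higher, with sums of 4136 to 4761 and 5309 to 6603 CPM.

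Genes listed for oligodendrocyte precursors stayed closer together, and 1 of 10 (Olig1) was lower. Their sums were 1574 to 1766 CPM in controls and 1509 to 1744 CPM at 30 mM. That list also holds Olig1, Olig2, Sox10, Gpr17 and Bcas1, which are not confined to dividing cells. Its sum therefore does not measure the number of dividing precursors. Pdgfra stood at 55.0 ± 10.8 and 47.4 ± 2.23 CPM and Cspg4 at 29.3 ± 6.45 and 27.8 ± 6.62 CPM. The microglial sums were 243 to 408 and 241 to 395 CPM, with 1 of 8 tested markers (Cx3cr1) higher. The endothelial sums were 47.9 to 71.2 and 44.4 to 75.1 CPM, with 0 of 3 tested called and Cldn5 at 0 in every well of experiment 1. Of the neuronal markers Stmn2 and Gap43 were lower, 2 of 6 tested. Mitochondrial genes took 2.94 to 3.82% of counts in control wells and 3.59 to 4.79% at 30 mM. The labelled cell type thus had its markers, and those of astrocytes, neurons, and fibroblast and mural cells were present beside them in every group. Microglial markers had mean sums of 3381 CPM in the controls of experiment 2 and 3507 CPM at 10 mM, far above those of experiment 1.

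All 4 genes for Cdk1 and its cyclins fell at 30 mM. Cdk1 (ENSMUSG00000019942), the kinase that starts mitosis, had lowest, median and highest levels of 113, 119 and 153 CPM in control wells and 77.9, 87.1 and 99.4 CPM in ethanol wells. The groups did not overlap, and Cdk1 fell by 30.6% (log2 -0.53 ± 0.09, SE, edgeR adjusted p = 6.04e-05). Ccna2 (ENSMUSG00000027715), cyclin A of S phase and G2, changed most in the group, from 65.1, 71.7 and 81.4 CPM to 30.7, 44.8 and 61.5 CPM, again without overlap (log2 -0.68 ± 0.11, edgeR adjusted p = 4.51e-05). Ccnb1 (ENSMUSG00000041431), the main mitotic cyclin, stood at 55.4, 64.6 and 70.0 CPM in controls and 38.5, 45.4 and 51.5 CPM with ethanol, so that all ethanol wells were lower (log2 -0.51 ± 0.10, edgeR adjusted p = 0.000467). Its relative Ccnb2 fell by 0.54 on the log2 scale, with overlapping wells.

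Of the 5 mitotic kinases, 3 fell. Aurka (ENSMUSG00000027496), which matures the centrosomes and builds the spindle poles, went from 36.3, 46.5 and 49.2 CPM in control wells to 19.7, 26.7 and 30.2 CPM with ethanol (lowest, median and highest), without overlap. The change was -0.76 ± 0.13 (log2, SE, edgeR adjusted p = 7.04e-05). Plk1, which acts at centrosomes, kinetochores and the cleavage furrow, fell by 0.70, and Pbk, a kinase of dividing cells, by 0.66, both with all ethanol wells below all controls. The spindle checkpoint kinase Bub1 and its relative Bub1b were lower in mean but did not pass, at -0.44 ± 0.20 (edgeR adjusted p = 0.156) and -0.32 ± 0.16 (edgeR adjusted p = 0.194). Bub1b wells at 30 mM spread from 15.4 to 40.5 CPM, around the control wells at 28.8 to 40.1 CPM.

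The 3 genes grouped under the anaphase-promoting complex and ubiquitin all fell. Cdca3 (ENSMUSG00000023505), a trigger of mitotic entry, works with a ubiquitin ligase other than that complex. It changed most, from 84.2, 94.4 and 103 CPM to 49.3, 56.7 and 59.1 CPM. The groups lay far apart, with a change of -0.76 ± 0.09 (log2, SE, edgeR adjusted p = 8.71e-08). Ube2c, the conjugating enzyme of the complex, fell by 0.53 without overlap. Cdc20, its activator, fell by 0.35 ± 0.11 (edgeR adjusted p = 0.0295), with overlapping wells. That call was lost in DESeq2 (adjusted p = 0.0620), with upper-quartile scaling (adjusted p = 0.0548), and when any 1 of 5 wells was left out.

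The chromosomal passenger complex holds Aurora B kinase at centromeres and later at the cell equator, and 2 of its 3 listed genes fell. Cdca8 (ENSMUSG00000028873), which encodes the targeting subunit borealin, stood at 97.7, 105 and 122 CPM in control wells and 53.3, 61.9 and 68.1 CPM at 30 mM. All ethanol wells were below all controls by a wide gap, and the change of -0.84 ± 0.09 (log2, SE, edgeR adjusted p = 9.2e-09) had the smallest p of the members. Birc5, survivin, fell by 0.39. Aurkb itself was at -0.37 ± 0.16 and did not pass (edgeR adjusted p = 0.138), with 22.0 to 34.2 CPM in controls and 14.7 to 25.1 CPM with ethanol.

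Of the 7 centromere and kinetochore genes, 6 fell, by 0.33 to 0.52 on the log2 scale, and only Cenpf had all its ethanol wells below its controls. Ndc80 (ENSMUSG00000024056), part of the rod that grips microtubules, changed most, from 21.4, 29.4 and 33.9 CPM to 16.2, 17.6 and 25.5 CPM. A pair of ethanol wells, at 24.3 and 25.5 CPM, lay among the controls, and the change was -0.52 ± 0.16 (log2, SE, edgeR adjusted p = 0.0300). That call was lost in DESeq2 (adjusted p = 0.0617) and when any 1 of 7 wells was left out, with an edgeR adjusted p of up to 0.0809, reached without replicate 4 at 30 mM. Its partner Spc25 fell by 0.33, and Nuf2, of the same rod, was at -0.40 ± 0.20 and did not pass (edgeR adjusted p = 0.229). Cenpa, the histone variant that marks centromeres, fell by 0.44, the kinetochore motor Cenpe by 0.48, the large kinetochore protein Cenpf by 0.46, and Knstrn, a spindle and kinetochore adaptor, by 0.43. The call of Knstrn was lost with the total count as a covariate (-0.33, edgeR adjusted p = 0.0768) and when any 1 of 4 wells was left out.

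Of the 5 genes for spindle motors and microtubule-binding proteins, 4 fell. Kif2c (ENSMUSG00000028678), a kinesin that takes microtubules apart at centromeres, was at 17.3, 24.9 and 34.4 CPM in control wells and 9.83, 14.9 and 21.0 CPM with ethanol. The wells overlapped, and the change was -0.71 ± 0.19 (log2, SE, edgeR adjusted p = 0.00873), with an edgeR adjusted p of 0.0507 without control replicate 3. Kif11, the motor that pushes the spindle poles apart, fell by 0.52, and Nusap1, which bundles spindle microtubules, by 0.56, both without overlap. Tpx2, the activator of Aurora A, fell by 0.64. Hmmr, a spindle-associated protein, did not pass, at -0.19 ± 0.11 (edgeR adjusted p = 0.290), and its highest ethanol well, at 76.3 CPM, lay above all 6 controls.

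The central spindle and cytokinesis genes were the least uniform, with 2 of 4 tested called. Ect2 (ENSMUSG00000027699), which switches on RhoA at the cleavage furrow, stood at 16.6, 19.2 and 21.4 CPM in controls and 7.28, 10.3 and 14.7 CPM at 30 mM. The wells did not overlap (log2 -0.83 ± 0.21, SE, edgeR adjusted p = 0.00550). Racgap1, the centralspindlin subunit that recruits Ect2, fell by 0.32 with overlapping wells. Kif23, the motor subunit of centralspindlin, was at -0.08 ± 0.13 and did not pass (edgeR adjusted p = 0.740), and its wells, at 29.9 to 51.3 CPM in controls and 33.1 to 49.2 CPM with ethanol, covered one range. Prc1, which bundles the central spindle, was at -0.40 ± 0.14, just outside the threshold (edgeR adjusted p = 0.0620).

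All 3 genes of chromosome structure and proliferation fell without overlap of the wells. Mki67 (ENSMUSG00000031004), the Ki-67 protein used to stain dividing cells, went from 113, 131 and 142 CPM to 64.5, 93.7 and 110 CPM (log2 -0.47 ± 0.10, SE, edgeR adjusted p = 0.000644). Top2a (ENSMUSG00000020914), the topoisomerase that untangles sister chromatids, went from 272, 301 and 319 CPM to 200, 227 and 258 CPM (log2 -0.41 ± 0.07, edgeR adjusted p = 5.72e-05). Pimreg (ENSMUSG00000020808), a mitotic regulator of the metaphase to anaphase step, had the largest change of all members, from 60.2, 72.7 and 81.7 CPM to 33.6, 39.1 and 47.6 CPM. It fell by 45.1% (log2 -0.87 ± 0.11, edgeR adjusted p = 8.24e-08).

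**Figure D3:**
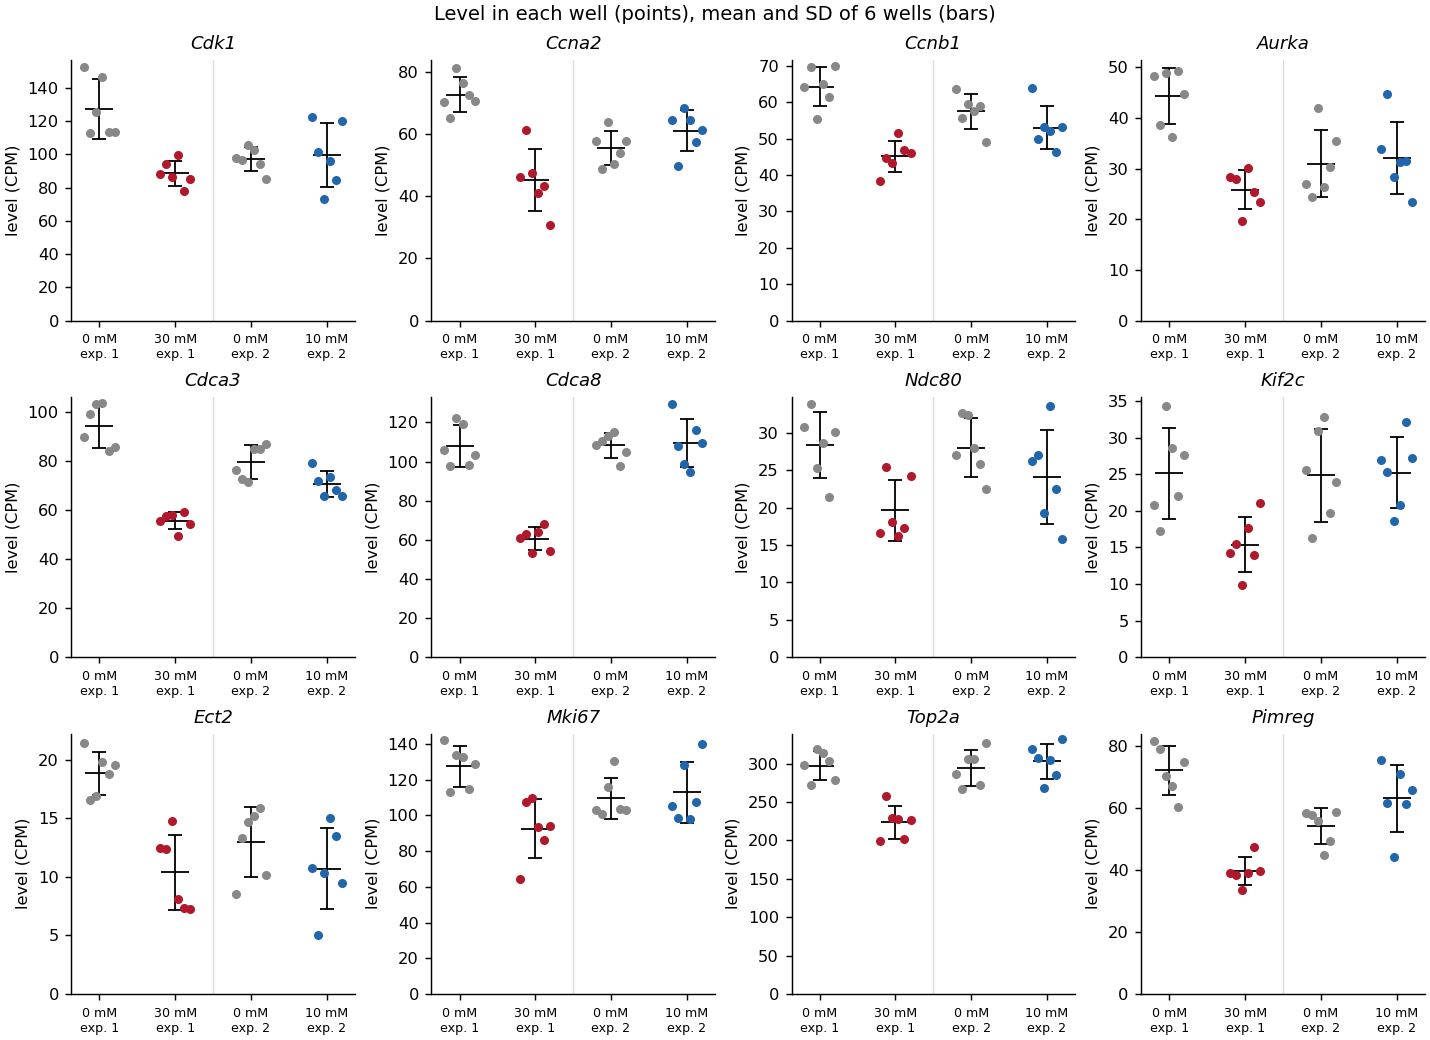
Level (CPM, y axes from 0) of 12 members in each well (points) of the 4 groups, with mean and SD of 6 wells (bars); 0 mM exp. 1 and exp. 2 are the untreated wells. Cdca8 and Cdca3 separate completely at 30 mM, Ndc80 and Kif2c overlap with their controls, and the wells at 10 mM overlap with theirs for all 12 genes.

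At 10 mM the same question was put to the wells of experiment 2. No member was called, with 0 of 34 lower and 0 higher by edgeR's quasi-likelihood test, where 0.657% of 13538 genes were called, 0.266% lower and 0.391% higher. DESeq2 and limma voom called 0 members as well. At an unadjusted p under 0.05 there were 2 members of 34, against 10.1% of all genes. The log2 fold change was below 0 for 15 of the 34, its median was 0.01, and it ranged from -0.24 to 0.23. Wells that did not overlap were found for 0 members, against 0.421% of all genes lower and 0.473% higher.

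Those 2 members moved in opposite directions. Hmmr had 52.9, 65.2 and 73.5 CPM in the controls of experiment 2 and 41.4, 55.2 and 64.2 CPM at 10 mM (log2 -0.24 ± 0.10, SE, edgeR adjusted p = 0.356). Pimreg had 44.8, 56.8 and 58.6 CPM in controls and 44.2, 63.7 and 75.4 CPM at 10 mM (log2 0.23 ± 0.10, edgeR adjusted p = 0.447). The wells of both genes overlapped. Next in order of p came Kif11, with 33.4, 38.1 and 53.9 CPM in controls and 39.6, 48.5 and 50.8 CPM at 10 mM (log2 0.22 ± 0.11, edgeR adjusted p = 0.522), and Cdca3, with 71.3, 80.6 and 86.8 CPM and 65.5, 69.9 and 79.3 CPM (log2 -0.17 ± 0.09, edgeR adjusted p = 0.524).

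The intervals show what size of change at 10 mM the wells could still hold. For 32 of 34 members the 95% interval of the log2 change included 0, and for 32 of 34 it lay wholly above -0.50, the members' median at 30 mM. The 2 whose intervals reached that median were Ect2, from -0.65 to 0.20, and Ndc80, from -0.50 to 0.08. Cdk1 was at 0.04, with an interval of -0.13 to 0.22, Mki67 at 0.06 (-0.11 to 0.22), Top2a at 0.05 (-0.07 to 0.17), Cdca8 at 0.01 (-0.14 to 0.17) and Ccnb1 at -0.11 (-0.31 to 0.08). Cell type markers moved at 10 mM too, and their relation to the members was not tested. Of 10 mature oligodendrocyte markers 3 were higher and 0 lower. Their sums overlapped, at 7065 to 8956 CPM in controls and 8223 to 9343 CPM at 10 mM. Of 10 fibroblast and mural cell markers 2 were lower and 0 higher, and of 12 microglial markers 2 were higher and 0 lower. Of 7 neuronal markers 1 was lower and 1 higher, and 0 precursor or astrocyte markers were called.

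**Figure D4:**
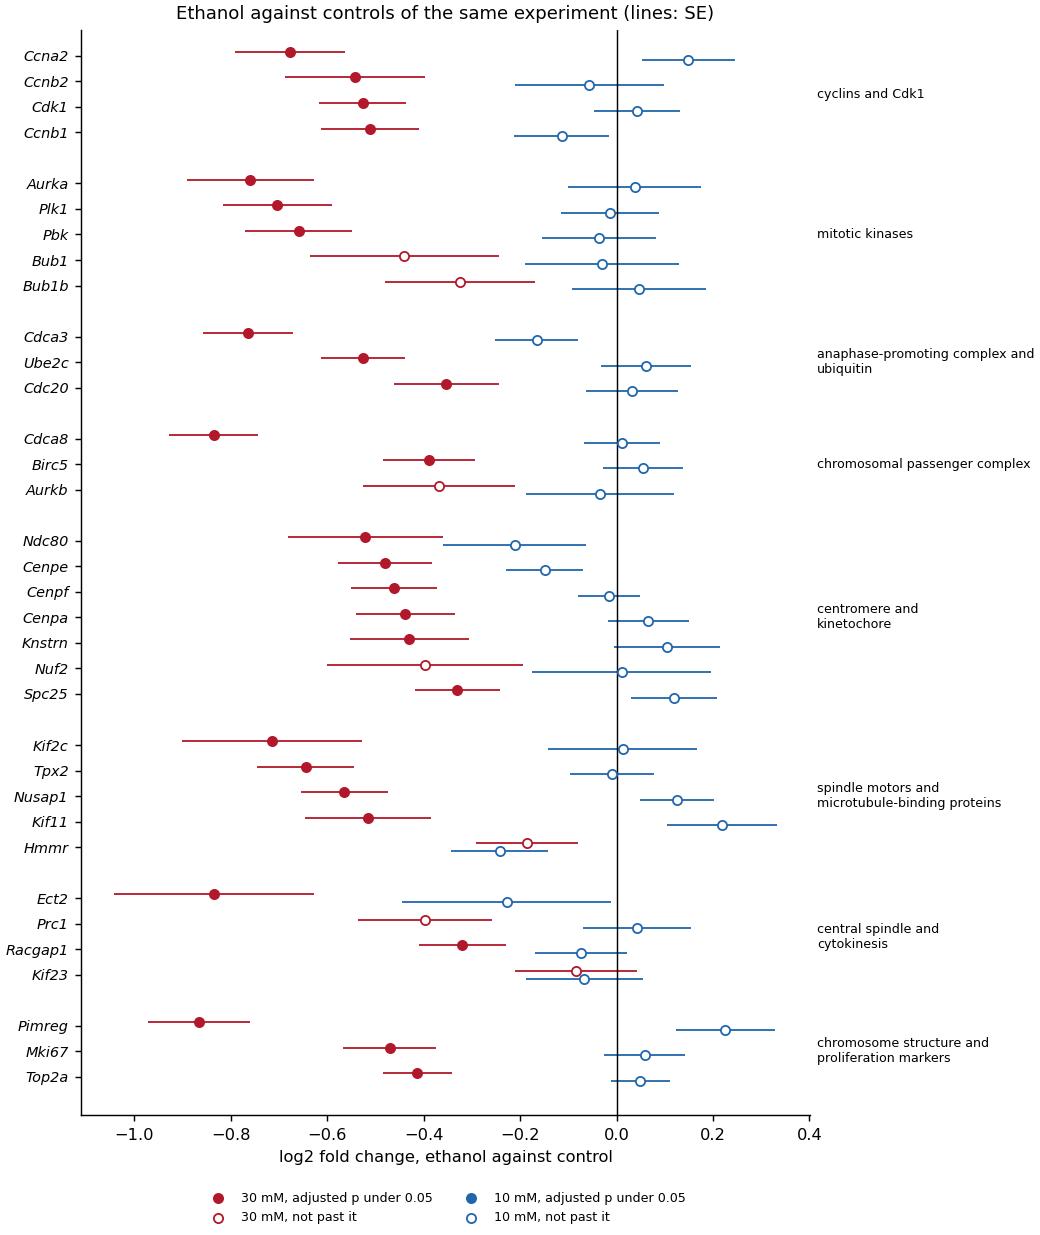
Log2 fold change, ethanol against controls of the same experiment (x axis), of the 34 members tested, by role, at 30 mM (red) and 10 mM (blue), with lines of 1 SE and filled points where the edgeR adjusted p was under 0.05. All 34 red points lie left of 0 and 27 are filled, and the blue points lie on both sides of 0 with 0 filled.

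Whether the changes differed between the doses was tested as such, as the log2 change at 30 mM minus that at 10 mM over all 24 wells. The difference was below 0 for 33 of 34 members and passed for 18, all of them lower at 30 mM and 0 higher, where 3.28% of 14655 genes were called, 2.4% lower and 0.88% higher. With upper-quartile scaling, all genes split into 203 lower and 222 higher in place of 352 and 129, and 16 members were called lower. The members' median difference was -0.51, and 26 of 34 had an unadjusted p under 0.05, against 17.2% of all genes. Experiment and dose cannot be told apart in it.

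By p, the leading differences were those of Pimreg (-1.10 ± 0.15, SE, edgeR adjusted p = 4.16e-07), Cdca8 (-0.86 ± 0.13, edgeR adjusted p = 1.96e-06), Nusap1 (-0.70 ± 0.12, edgeR adjusted p = 0.000101) and Ccna2 (-0.84 ± 0.15, edgeR adjusted p = 0.000213). Nusap1 had 104, 117 and 133 CPM in the controls of experiment 1 and 70.7, 75.4 and 99.4 CPM at 30 mM. In experiment 2 it had 105, 115 and 133 CPM in controls and 115, 124 and 146 CPM at 10 mM. Its untreated wells thus covered the same range in both experiments, and its ethanol wells did not. By role, 2 of 4 cyclin and Cdk1 genes passed, 3 of 5 kinases, 2 of 3 genes of the anaphase-promoting group, 2 of 3 passenger genes, 3 of 7 kinetochore genes, 3 of 5 spindle genes, 0 of 4 cytokinesis genes and 3 of 3 proliferation genes. Among those that fell at 30 mM without passing here were Ccnb1 (-0.41, edgeR adjusted p = 0.0874) and Knstrn (-0.55, edgeR adjusted p = 0.0539), and for Hmmr the difference was 0.05 (edgeR adjusted p = 0.908).

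The untreated cultures of the experiments were then compared with each other, coded as experiment 1 minus experiment 2. Of 34 members 16 were higher in experiment 1 and 1 was lower, where 43.6% of 13479 genes were called, 21.3% higher and 22.3% lower. The members' median log2 difference was 0.23, against -0.01 over all genes. For 9 members the untreated wells of experiment 1 all lay above those of experiment 2, against 8.88% of all genes, and for 0 members below, against 10% of all genes. These comparisons share the controls of experiment 1 with that of 30 mM, so the same 6 wells enter both.

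The smallest p values were those of Ube2c, Spc25, Cdk1 and Knstrn. Ube2c had 95.1, 106 and 117 CPM in untreated wells of experiment 1 and 62.5, 80.2 and 87.5 CPM in those of experiment 2 (log2 0.48 ± 0.08, SE, edgeR adjusted p = 1.63e-06). Spc25 had 107, 112 and 122 CPM and 65.2, 83.3 and 96.4 CPM (log2 0.47 ± 0.08, edgeR adjusted p = 2.59e-06). In both genes the groups did not overlap. Cdk1 had 113, 119 and 153 CPM and 85.4, 97.2 and 106 CPM (log2 0.44 ± 0.08, edgeR adjusted p = 5.49e-06), and Knstrn 49.2, 58.6 and 68.1 CPM and 39.2, 41.4 and 43.4 CPM (log2 0.57 ± 0.11, edgeR adjusted p = 9.24e-06). Ccnb2, with 0.63, had the largest difference, and the other called members were Ccna2, Plk1, Aurka, Bub1b, Pbk, Cdca3, Tpx2, Racgap1, Ect2, Mki67 and Pimreg, at 0.26 to 0.59. The call of Plk1, the smallest of these at 0.26, was lost with upper-quartile scaling (adjusted p = 0.0855), library size alone (0.0769), DESeq2 (0.0586) and the total count as a covariate (0.543), and when any 1 of 3 wells was left out. With that covariate Cdca3 (0.101) and Tpx2 (0.343) were lost as well.

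Cenpf ran the other way, with 151, 166 and 185 CPM in experiment 1 and 176, 204 and 211 CPM in experiment 2. Its wells overlapped, the difference was -0.21 ± 0.07 (log2, SE, edgeR adjusted p = 0.00646), and without the filter on low counts it was -0.16 with an adjusted p of 0.104. None of the 3 passenger complex genes was called between the untreated cultures. Cdca8 was at 0.05 ± 0.08 (edgeR adjusted p = 0.670), and Top2a, with 267 to 327 CPM in experiment 2 and 272 to 319 CPM in experiment 1, was at 0.06 ± 0.06 (edgeR adjusted p = 0.417). Other measures also separated the untreated cultures, and their part in the members' difference was not tested. The marker counts that follow stand beside 22.3% of all genes called lower in experiment 1 and 21.3% called higher. All 12 microglial markers tested were lower in experiment 1, with sums of 243 to 408 CPM there and 3110 to 3624 CPM in experiment 2. Of the oligodendrocyte precursor markers 6 of 10 were lower and 1 was higher, with sums of 1574 to 1766 against 1961 to 2048 CPM, and of the neuronal markers 3 of 8 were lower and 0 higher, with sums of 554 to 716 against 747 to 836 CPM. Of the fibroblast and mural cell markers 4 of 11 were lower and 4 higher, and their sums were 1131 to 1462 against 649 to 846 CPM. Of the astrocyte markers 2 of 9 were lower and 6 higher, with overlapping sums of 4136 to 4761 against 4574 to 4966 CPM. Mitochondrial genes took 2.94 to 3.82% of counts in experiment 1 and 2.06 to 2.39% in experiment 2.

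**Figure D5:**
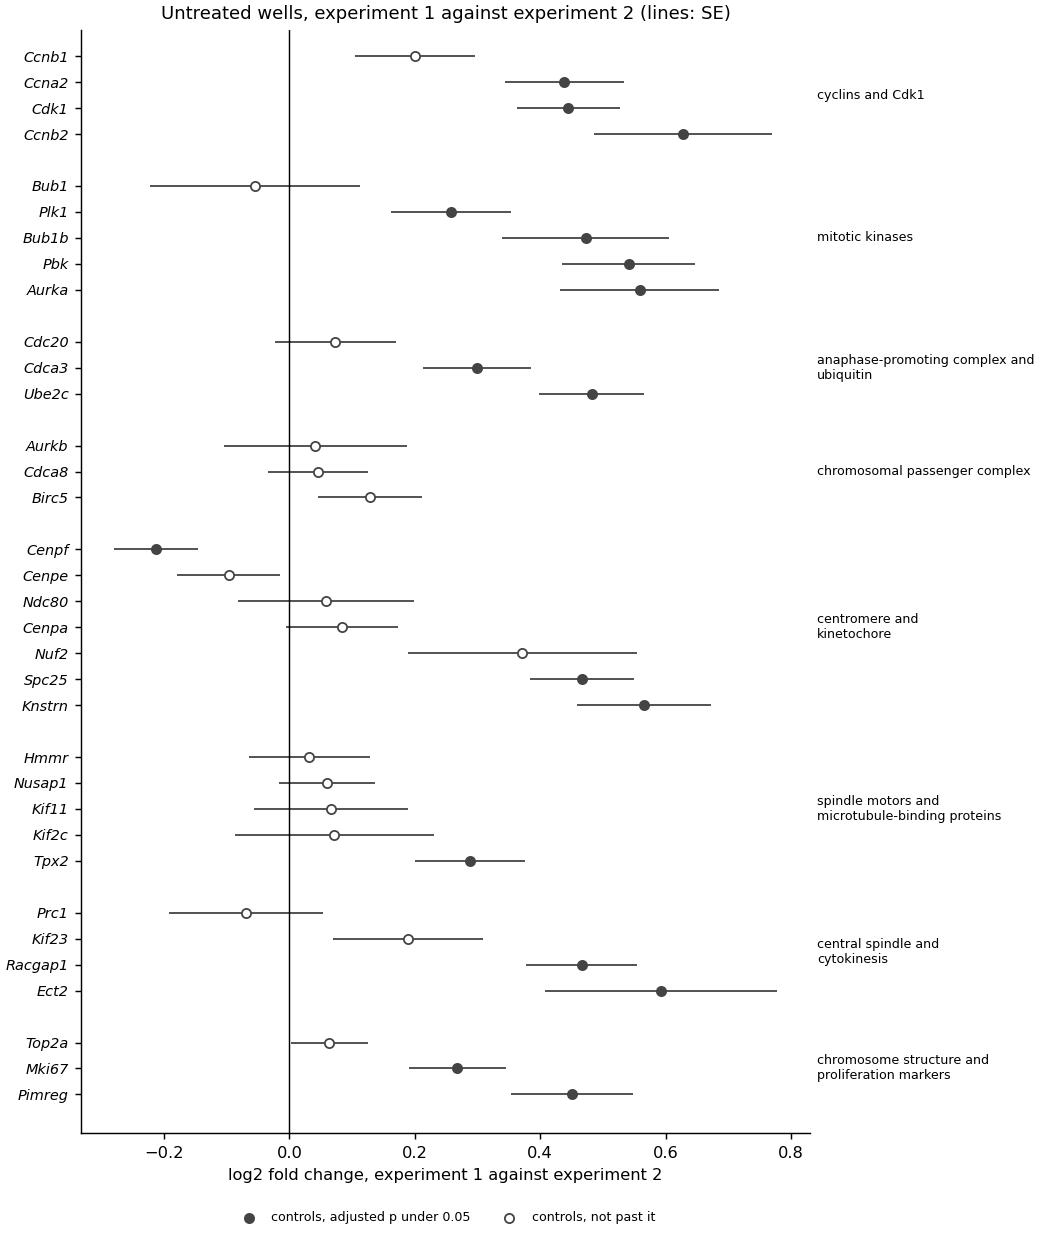
Log2 fold change between untreated wells, experiment 1 against experiment 2 (x axis), of the 34 members tested, by role, with lines of 1 SE and filled points where the edgeR adjusted p was under 0.05. Of the filled points 16 lie right of 0 and 1, Cenpf, lies left of it.

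Set side by side, the group means show which members were low at 30 mM against every other group. The mean was lowest at 30 mM for 27 of 35 members and highest in the controls of experiment 1 for 22. The like shares over all genes were not computed, and the 35 include Kif20a, which lay near the floor. Cdca8 stood at 108 ± 10.6 CPM in the controls of experiment 1, 108 ± 6.34 in those of experiment 2, 109 ± 12.4 at 10 mM and 60.6 ± 5.79 at 30 mM (SD, n = 6). Top2a stood at 297 ± 18.8, 294 ± 23.1, 303 ± 22.9 and 224 ± 21.3 CPM in the same order. In these genes only the 30 mM group stood apart, and its wells overlapped none of the others. Spc25, at 113 ± 5.24, 84.0 ± 11.5, 90.8 ± 10.8 and 89.7 ± 12.1 CPM, was different, the controls of experiment 1 being the high group and the 30 mM wells overlapping those of experiment 2. Racgap1 (89.3, 66.9, 63.7 and 72.2 CPM), Ccnb2 (34.6, 23.1, 22.0 and 23.8 CPM) and Knstrn (58.9, 41.4, 44.5 and 43.8 CPM) had that same order of a single high group.

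The members' changes at 30 mM were also set out by promoter letters. Of the 23 members with TTTGAA or TTCGAA in the window, 18 were lower at 30 mM, with a median log2 change of -0.47. Of the 6 with neither of these forms 5 were lower, with a median of -0.45. The 5 tested members with no promoter in the table had a median of -0.66, and 4 of them were lower. No test was made of these small groups.

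Other genes of the cell cycle were described from 4 lists that hold no member. Of the other G2/M and mitosis genes, 18 of 68 tested were lower at 30 mM and 0 higher, with a median log2 change of -0.34. Those with the smallest p were Melk, a kinase of dividing cells, from 29.0 ± 4.20 to 13.9 ± 3.35 CPM (log2 -1.08, edgeR adjusted p = 1.80e-05), the condensin subunits Smc4 (-0.46) and Smc2 (-0.49), and Spc24 (-0.76), partner of Spc25. Of the G1/S and DNA replication genes, 20 of 50 were lower and 0 higher, with a median of -0.39. Leading them were the replicative helicase subunits Mcm6, from 100.4 ± 12.8 to 60.8 ± 6.72 CPM (log2 -0.73, edgeR adjusted p = 4.63e-07), and Mcm7 (-0.57), the ribonucleotide reductase subunit Rrm2 (-0.64) and the DNA ligase Lig1 (-0.66). At 10 mM, 0 genes of either list were called, of 66 and 51 tested.

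The member sum was also set against the G1/S sum, without a test. The ratio of the sum over the 35 members to that over the 54 G1/S genes was 1.26 ± 0.0557 in the controls of experiment 1, 1.16 ± 0.0642 at 30 mM, 1.11 ± 0.0289 in the controls of experiment 2 and 1.16 ± 0.0489 at 10 mM (SD, n = 6). The wells at 30 mM, 1.08 to 1.26, overlapped their controls at 1.16 to 1.31. The G1/S sum itself went from 1955 to 2208 CPM in controls to 1549 to 1695 CPM at 30 mM, without overlap, and the controls of experiment 2, at 2042 to 2242 CPM, overlapped those of experiment 1.

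Among regulators of transcription in the cell cycle, 2 of 20 tested were lower at 30 mM and 1 was higher, against 6.65% and 3.02% of all genes. Counts this small do not set the list as a whole apart from all genes. Foxm1, the forkhead factor of G2/M genes, fell by 0.67 ± 0.15 (log2, SE, edgeR adjusted p = 0.00277), and Rbl1, the pocket protein p107, by 0.86 ± 0.27 (edgeR adjusted p = 0.0315). Rb1, the retinoblastoma protein, rose from 38.4 ± 5.86 to 49.8 ± 4.28 CPM (log2 0.38 ± 0.11, edgeR adjusted p = 0.0275). Mybl2, which encodes B-Myb, was at -0.24, and E2f1, an activator of S phase genes, at -0.32, and neither passed. The change of Foxm1 differed between the doses by -0.88 (edgeR adjusted p = 0.00702), and Foxm1 was higher in the untreated wells of experiment 1 by 0.61 (edgeR adjusted p = 0.000133).

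Of the D cyclins, their kinases and the CDK inhibitors, 5 of 13 tested were lower at 30 mM and 1 higher. Ccnd1, cyclin D1, fell by 0.51 ± 0.06 (log2, SE, edgeR adjusted p = 6.65e-08), its kinases Cdk4 and Cdk6 by 0.40 and 0.36, and the inhibitor Cdkn1c by 0.94, while Ccnd3 rose by 0.43. Ccnd2 fell by 0.19. The p53 target Cdkn1a, which stops the cycle, was at 0.05 and did not pass. Between the untreated cultures, Ccnd1 ran against most members, at -0.35 in experiment 1 minus experiment 2, and the inhibitors Cdkn1b and Cdkn1c were higher in experiment 1, by 0.63 and 1.14 (edgeR adjusted p = 2.38e-08 and 5.38e-08). In the regulator list and this list, 0 of 20 and 0 of 12 genes tested were called at 10 mM.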

How the data were processed

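Counts per gene came from 3′ tag sequencing with single-end NovaSeq reads, per the labels' protocols, in 24 wells. The authors deposited 1 table of raw counts, whole numbers that were not normalized. The submitters' processing notes name GRCm39, cutadapt 1.18 and STAR. The counter, the annotation release, the use of strand and the treatment of duplicates are not given in the sources used here, so overlapping and antisense genes are uncertain.

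Each dose was fitted against its own controls with edgeR 4.0.16 (quasi-likelihood test, R 4.3.3) on the counts as deposited. TMM factors were used, low genes were removed by filterByExpr (minimum count 10), and p-values were adjusted by Benjamini and Hochberg's method over every gene tested, with calls made under 0.05. For the difference between doses an interaction was fitted to the 24 wells together, and a separate fit held only the untreated groups. Each SE belongs to a log2 fold change, whose intervals are at 95%. Levels are CPM of the total count. Wells of a group differed by more than sampling noise, with a chi-square per degree of freedom of 1.07 to 2.88, and each was counted as 1 sample. The fit was tested on simulated data.

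The members and lists were chosen with earlier results of these data known. Lin54 of the regulator list was not matched. Values are given, in each role group, for the member with the largest change at 30 mM and for Mki67, Top2a, Cdk1 and Ccnb1, then for the 4 members with the smallest p in each other comparison, and for up to 4 called genes of each other list beside Foxm1, Mybl2, E2f1, Ccnd1 and Cdkn1a. Genes named beyond these were chosen after their values were seen. The level of 1 marker gene is not reported here. Binomial intervals and floors cover counting error only. Alternatives were RLE and upper-quartile scaling, library size alone, no filter, DESeq2 1.42.0, limma voom (limma 3.58.1), a joint fit, the replicate number as a block, the log2 total count as a covariate, thresholds of 0.1 and 0.01, shorter promoter windows, the mean log2 CPM over members with a prior count of 2, and leaving out each well.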

Additional observations from a re-analysis of the deposited data

Results flagged for a closer look

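A single well stood apart from the other 5 of its group, by Dixon's test at 95%, in 5 of 148 sets of 6 wells, where chance gives about 7.4. These were Bub1 at 10 mM, with 15.0 CPM in replicate 5 and 20.01 CPM in the next well, and Ube2c in the controls of experiment 2, with 62.5 CPM in replicate 3 and 78.9 CPM in the next. Birc5 in the controls of experiment 1 had 126.6 CPM in replicate 4 and 102.5 CPM in the next well, Cenpe at 10 mM had 115.1 CPM in replicate 6 and 96.2 CPM in the next, and Hmmr at 30 mM had 76.3 CPM in replicate 5 and 56.6 CPM in the next. The wells were kept. The difference between the doses for Birc5 did not pass without control replicate 4 of experiment 1 (-0.38, edgeR adjusted p = 0.1005).

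The log2 change differed between 30 mM and 10 mM for 18 members by the interaction test in edgeR, all more negative at 30 mM. The differences of the cyclin and kinase genes were -0.58 for Cdk1, -0.84 for Ccna2, -0.70 for Plk1, -0.81 for Aurka and -0.63 for Pbk. Ube2c differed by -0.60, Cdca3 by -0.61, Birc5 by -0.46 and Cdca8 by -0.86. At the kinetochore and spindle the differences were -0.52 for Cenpa, -0.46 for Cenpf, -0.46 for Spc25, -0.75 for Kif11, -0.65 for Tpx2 and -0.70 for Nusap1. Mki67 differed by -0.54, Top2a by -0.47 and Pimreg by -1.10. Each dose was used in 1 experiment only, so dose and experiment cannot be told apart.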

How the results depend on the processing

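The number of members lower at 30 mM was 27 and lay between 21 (adjusted p under 0.01) and 28 over the alternatives, and between 24 and 28 when 1 well was left out. At 10 mM it was 0 in every alternative. The difference between doses held for 13 to 21 members (18 in the main fit, 14 with the total count as a covariate), and 16 to 21 with 1 well left out. The number higher in the untreated wells of experiment 1 was 13 to 18, and 15 to 17 with 1 well left out. The 1 member lower there, Cenpf, was lost without the low-count filter, which left 0. No direction was reversed among the members tested at 30 mM, or among those called for the difference or between controls. At 10 mM directions were followed only for Hmmr, Pimreg, Kif11 and Cdca3, and none of these was reversed. The summed level at 10 mM did change sign, from 0.01 (log2) to -0.01 without 10 mM replicate 6. At a threshold of 0.05, called in every alternative fit were 23 of 27 members at 30 mM (not Cdc20, Ndc80, Knstrn and Kif2c), 14 of 18 for the difference (not Pbk, Birc5, Cenpa and Spc25) and 13 of 17 between controls (not Plk1, Cdca3, Cenpf and Tpx2).

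Single wells ended these calls when left out, with edgeR adjusted p at 30 mM of up to 0.112 for Cdc20 (30 mM replicates 3 and 5, control replicates 1, 2 and 5), up to 0.0809 for Ndc80 (30 mM replicates 1, 3, 4 and 5, control replicates 1, 2 and 4) and up to 0.0744 for Knstrn (30 mM replicates 3 and 6, control replicates 3 and 4). Kif2c was at 0.0507 without control replicate 3. For the difference, Birc5 reached 0.1005 (30 mM replicates 3 and 5, 10 mM replicates 1, 2 and 6, control replicate 4 of experiment 1 and 5 of experiment 2) and Spc25 0.0864 (30 mM replicate 6, 10 mM replicate 6, control replicate 1 of experiment 1 and 5 of experiment 2). Between controls, Plk1 reached 0.0813 (replicate 4 of experiment 1, replicates 2 and 5 of experiment 2) and was also lost in 4 of the other fits. The cause was not tested.

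Over all genes, the joint fit called 21 at 10 mM in place of 89, and the total count as a covariate called 307 for the difference in place of 481. In a shorter window, 100 bases around the start, chosen after the positions were seen, a CHR form lay in 74.2% of the member promoters (3.57% of those of tested genes), CCAAT in 54.8% (14.4%) and both in 51.6% (0.913%). With 1 well left out the summed level ran from -0.53 to -0.47 at 30 mM, -0.01 to 0.03 at 10 mM and 0.13 to 0.16 between controls (log2).

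With the replicate number as a block, 27 members were lower at 30 mM and 0 at 10 mM. It gave 18 members for the difference and, between controls, 16 higher and 1 lower, so the block changed no count. The labels tie no number to a shared source. Same-numbered wells correlated at -0.18 to 0.25 in their deviations at 30 mM and -0.04 to 0.04 at 10 mM, and 1 of 6 and 0 of 6 wells matched best with their own number.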
